A study of Sus scrofa with 11 samples.

Results

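The NR4A nuclear receptors are a family of 3 transcription factors, NR4A1 (also called Nur77), NR4A2 (Nurr1) and NR4A3 (NOR-1). They were picked by symbol, and each of the 3 symbols matched exactly 1 of the 25880 pig gene identifiers in the count tables, 14857 of which carry a symbol. All 3 passed the filter on low counts. NR4A1 is ENSSSCG00000031321, on chromosome 5 at 17403088 to 17407918 in Sscrofa11.1, where RefSeq enters the locus as a pseudogene. NR4A2 is ENSSSCG00000015871, a protein-coding gene on chromosome 15 at 63487051 to 63506249. NR4A3 is ENSSSCG00000005385, also protein-coding, on chromosome 1 at 241569867 to 241611735.

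Most nuclear receptors wait for a ligand, but the NR4A proteins are thought to act mainly through how much of them is made. Their genes belong to the immediate early class, switched on within minutes by cAMP, calcium, growth factors, cytokines or stretch through CREB, MEF2 and SRF, and their transcripts are short-lived. The proteins bind DNA alone, as pairs, or, for NR4A1 and NR4A2, with the retinoid X receptors. In rodent and human vessels NR4A1 is known for restraining smooth muscle growth and inflammation, and NR4A3 for promoting smooth muscle proliferation.

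RNA sequencing counts came from 11 libraries of pig coronary artery, prepared for an organ culture model of arteries that receive stents. The cultured vessels had been kept in a bioreactor and formed 4 groups. Stented static vessels (Stent/Flow - in the labels) held a stent without flow and gave 2 libraries, and stented high-flow vessels (Stent/Flow ++) held a stent under flow and gave 3. High-flow vessels (Flow ++) had the same flow mark and no stent, and low-flow vessels (Flow +) had the weaker flow mark and no stent; each gave 2 libraries. Native vessels (Native control), which were not cultured, gave the other 2. The sources used here do not state strain, age, sex, stent type or drug treatment, nor whether replicate libraries represent different animals. The p-values therefore measure only the spread between these libraries, which may be technical. The labels mark both stented static libraries 3d and stented high-flow replicate 3 7d, and give no such mark for the others. The number 25, whose meaning is not stated, stands in the labels of both native replicate 2 and stented high-flow replicate 1.

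Library totals were 13496636 to 26785124 counts, and 3 counts correspond to 0.105 to 0.215 CPM (counts scaled to library totals, adjusted with edgeR's TMM factors). The least abundant member value, NR4A3 in low-flow replicate 2, rested on 79 counts. Smooth muscle markers (7 of 7 matched) summed to 452 to 6934 CPM in the cultured libraries and 27340 to 32850 CPM in the native ones, so all 11 libraries held RNA of these genes. The native libraries differed in cardiomyocyte markers (5 of 7 matched), which summed to 1168 CPM in replicate 1 and 97.6 CPM in replicate 2. Stented static replicate 1 had adipocyte markers at 1878 CPM, against 119 CPM in replicate 2 of that group. In bulk tissue, fewer cells of a type and less RNA per cell cannot be told apart.

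All NR4A transcripts were far lower in every cultured group than in native arteries. NR4A1 measured 27.2 and 17.7 CPM in stented static vessels, 36.0, 15.5 and 42.6 CPM in stented high-flow, 68.9 and 95.6 CPM in high-flow and 17.2 and 20.7 CPM in low-flow, against 2273 and 1475 CPM in native arteries. The lowest native library thus held 15.4 times as much NR4A1 as the highest cultured one, high-flow replicate 2. Means were 22.4 ± 6.71 CPM in stented static, 31.4 ± 14.2 CPM in stented high-flow, 82.3 ± 18.9 CPM in high-flow and 18.9 ± 2.46 CPM in low-flow vessels, and 1874 ± 564 CPM in native ones (SD, n = 2, or n = 3 in stented high-flow). Cultured vessels as a whole kept 2.02% of the native NR4A1 mean.

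NR4A2 kept more of its native level. It measured 13.4 and 13.0 CPM in stented static vessels, 33.2, 23.9 and 24.3 CPM in stented high-flow, 51.7 and 46.2 CPM in high-flow and 14.2 and 15.7 CPM in low-flow, against 121 and 169 CPM in native arteries. The groups again did not overlap with native, but the gap between the lowest native and the highest cultured library was 2.34 times. How many of all genes separate cultured from native libraries was not counted. Non-overlap with native, for every member and ratio, is therefore only a description. High-flow vessels kept 33.7% of the native mean, stented high-flow 18.7%, low-flow 10.3% and stented static 9.12%. Libraries of a group lay close together for this gene, with means of 13.2 ± 0.297 CPM in stented static, 27.1 ± 5.28 CPM in stented high-flow, 48.9 ± 3.89 CPM in high-flow and 14.9 ± 1.05 CPM in low-flow vessels, and 145 ± 34.5 CPM in native ones (SD, n as for NR4A1).

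NR4A3 was low in all cultured vessels. It measured 3.16 and 5.54 CPM in stented static vessels, 6.03, 5.33 and 8.39 CPM in stented high-flow, 10.3 and 4.77 CPM in high-flow and 6.04 and 2.76 CPM in low-flow, against 178 and 245 CPM in native arteries. The 9 cultured libraries averaged 2.74% of the native mean, and the lowest native library held 17.3 times the CPM of the highest cultured one, high-flow replicate 1. The cultured groups overlapped for this gene.

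**Figure D1:**
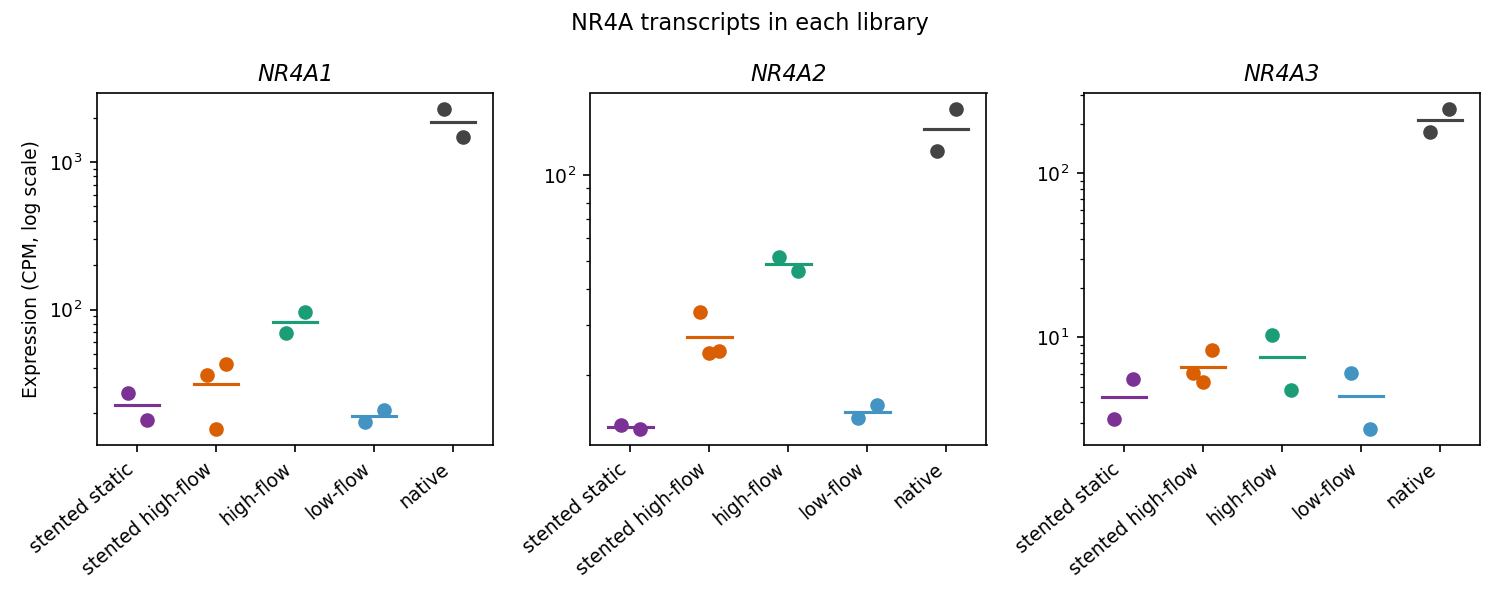
Expression of NR4A1, NR4A2 and NR4A3 in CPM on a log axis (the range differs between panels), with a point for each library and a line at the group mean, in the order stented static, stented with flow, high-flow without a stent, low-flow and native. Native libraries lie above every cultured library for all 3 genes, and high-flow libraries lie highest among the cultured ones for NR4A1 and NR4A2.

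The comparison with native arteries asked how each culture condition departs from the native vessel. In stented static vessels all 3 members were called lower by edgeR (adjusted p below 0.05), where 7.19% of the 15348 genes tested were lower and 5.54% higher. NR4A1 changed by -6.38 ± 0.56 (log2 fold change ± SE, adjusted p = 0.00028), NR4A3 by -5.61 ± 0.56 (adjusted p = 0.000458) and NR4A2 by -3.45 ± 0.30 (adjusted p = 0.000277). In stented high-flow vessels all 3 were again lower, beside 13.9% of all genes lower and 10.4% higher. NR4A1 stood at -5.90 ± 0.46, NR4A3 at -5.00 ± 0.46 and NR4A2 at -2.42 ± 0.25 there (edgeR adjusted p = 6.17e-05, 0.000115 and 0.000167).

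In high-flow vessels without a stent all 3 members were called lower, beside 8.86% of all genes lower and 5.94% higher. NR4A1 changed by -4.51 ± 0.51 and NR4A3 by -4.81 ± 0.53 (edgeR adjusted p = 0.000758 and 0.000699). NR4A2 changed by -1.57 ± 0.28 (edgeR adjusted p = 0.00502). That call was lost without native replicate 2, the library with more NR4A2, at -1.25 and an adjusted p of 0.0571. In the authors' deposited table for this comparison, which names 1129 genes with a smallest absolute log2 fold change of 1.69, NR4A1 and NR4A3 are listed and NR4A2 is not. The authors' deposited tables for the other cultured groups list all 3 members as lower.

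Low-flow vessels had all 3 members called lower, beside 7.38% of all genes lower and 5.03% higher. NR4A1 changed by -6.63 ± 0.57, NR4A3 by -5.59 ± 0.56 and NR4A2 by -3.28 ± 0.30 (edgeR adjusted p = 0.000247, 0.000374 and 0.000261). Ranked by log2 fold change among the 15348 genes, NR4A1 was number 67 from the lowest in stented static vessels, 167 in stented high-flow, 278 in high-flow and 98 in low-flow. NR4A2 ranked 374, 1252, 1946 and 520 in the same 4 comparisons, which share their native libraries and so are not independent of each other.

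Averaged over the 4 cultured groups against native, where 15.9% of all genes were called lower, NR4A1 changed by -5.86 ± 0.30, NR4A3 by -5.26 ± 0.31 and NR4A2 by -2.68 ± 0.19 (edgeR adjusted p = 1.89e-06, 3.05e-06 and 7.02e-06). These calls held under all 16 alternatives run, with NR4A1 between -6.09 and -5.51, NR4A2 between -2.91 and -2.37 and NR4A3 between -5.47 and -4.96. An exact two-sided permutation test of mean log2 CPM, 9 cultured against 2 native libraries, gave p = 0.0182 for each member, which is the smallest value that the 55 arrangements allow. Smooth muscle markers were lower in the same libraries (above), as were Schwann cell markers (4 of 5 matched), at 10.7 to 157 CPM in cultured and 680 to 717 CPM in native libraries. Red cell markers moved the same way, at 0 to 0.771 CPM in cultured and 36.5 to 48.2 CPM in native libraries (2 of 5 matched, with haemoglobin HBB at 0 counts in 3 of the cultured groups). Cardiomyocyte markers were lower too, at 7.92 to 53.5 CPM in cultured and 97.6 to 1168 CPM in native libraries. Of the cardiomyocyte genes, TNNT2, ACTN2 and RYR2 were lower in every cultured library, and MYH6 and MYL2 overlapped. RYR2, at 76.2 CPM, made up most of the sum in native replicate 2, where MYH6 was 1.67 CPM. Endothelial markers (5 of 7 matched, without VWF and CLDN5) summed to 208 to 297 CPM in stented high-flow, 361 to 513 CPM in high-flow and 439 to 614 CPM in low-flow vessels, all below the 731 to 838 CPM of native ones. In stented static vessels they were 907 CPM in replicate 1 and 357 CPM in replicate 2. Adipocyte markers were 24.9 to 183 CPM in the cultured libraries other than stented static replicate 1 (1878 CPM), and 1076 to 1704 CPM in native ones. Neutrophil and mast cell markers (3 of 6 matched, nearly all of it the receptor KIT) were higher, at 52.0 to 193 CPM in cultured and 23.6 to 26.2 CPM in native libraries. Adventitial fibroblast sums overlapped, at 1442 to 6343 CPM in cultured and 2587 to 2825 CPM in native libraries. Of their genes, PI16, DPT and SFRP4 were lower in every cultured library, PDGFRA was higher, and LUM and DCN overlapped. Macrophage sums overlapped too, at 258 to 1859 and 418 to 430 CPM. CD163, CD68 and MSR1 were higher in every cultured library, and the other macrophage genes overlapped. The part of all these cells in the fall of NR4A transcripts was not tested.

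**Figure D2:**
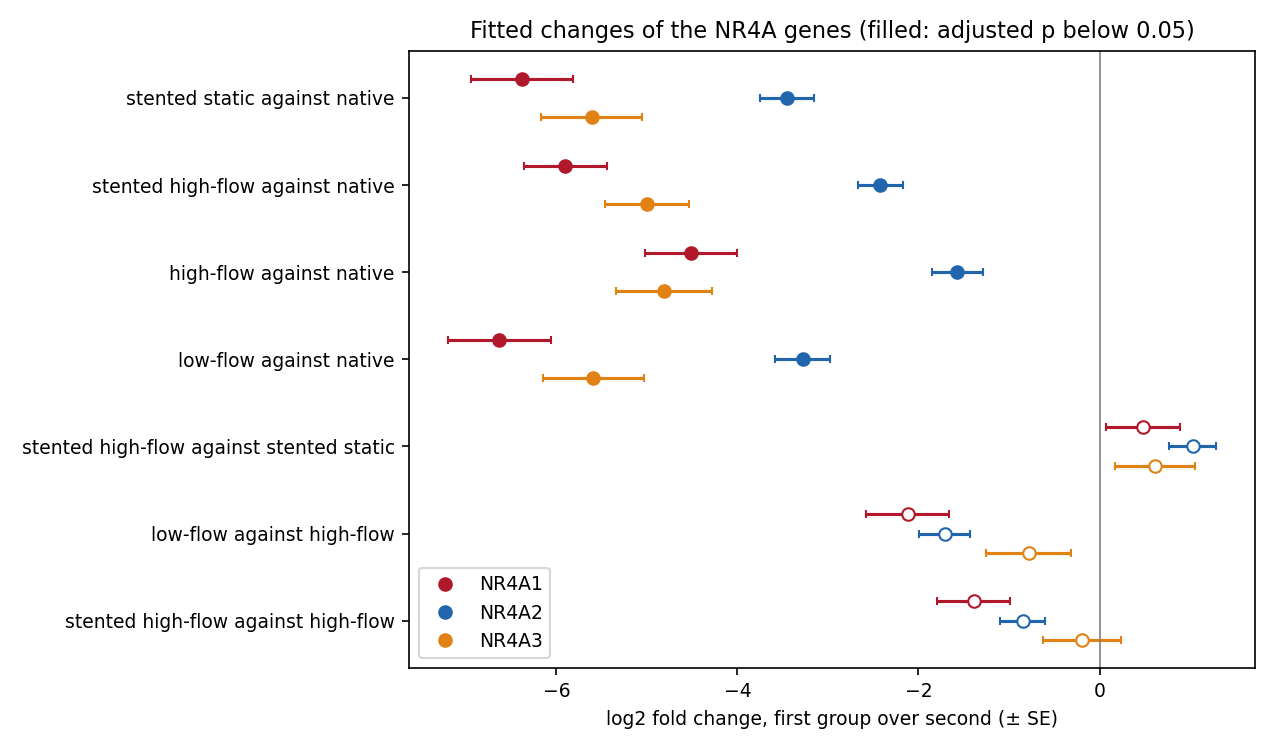
Log2 fold changes of NR4A1, NR4A2 and NR4A3 (first group named over the second, ± SE) in 4 comparisons with native vessels and 3 between cultured groups. Filled points have an edgeR adjusted p below 0.05. Against native, NR4A1 lies between -6.63 and -4.51, NR4A3 between -5.61 and -4.81 and NR4A2 between -3.45 and -1.57. In the main edgeR fit no member was called in the 3 comparisons between cultured groups. DESeq2 called NR4A2 in stented high-flow against stented static and NR4A1 and NR4A2 in low-flow against high-flow. Those low-flow calls were also made by edgeR without the filter or with a single count table.

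NR4A1 made up a smaller share of the family's transcripts after culture, and NR4A2 a larger one. On raw counts, NR4A2 supplied 30.7% to 53.5% of the family's reads in the cultured libraries and 4.69% and 8.97% in the native ones, while NR4A1 supplied 34.6% to 65.2% in cultured and 88.4% and 78.1% in native libraries. These shares are not corrected for transcript length, so they compare libraries and not the genes with one another. The log2 ratio of NR4A1 to NR4A2 averaged 0.43 in cultured libraries, from -0.62 to 1.05, and 3.68 in native ones, at 4.23 and 3.12. Cultured and native libraries did not overlap, and the difference of -3.25 had an exact two-sided permutation p of 0.0182 (0.0273 adjusted over the 3 ratios), the smallest the design allows before adjustment. NR4A2 over NR4A3 moved the other way, with a mean of 2.07 in cultured and -0.55 in native libraries, a difference of 2.62 (exact permutation p = 0.0182, adjusted 0.0273). NR4A1 over NR4A3 overlapped between cultured and native libraries, from 1.49 to 4.30 in cultured ones and at 3.67 and 2.59 in native ones (difference -0.63, exact permutation p = 0.382). These ratio tests were added after the values were seen.

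**Figure D3:**
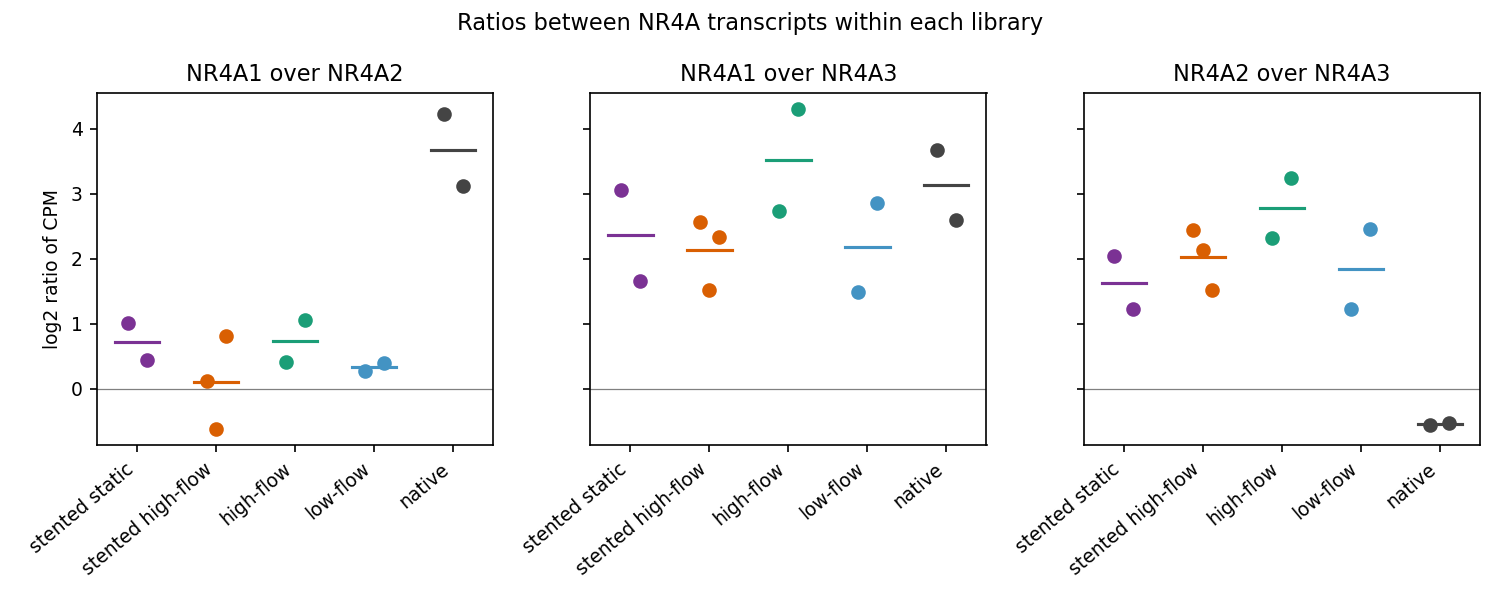
Log2 ratios of CPM between pairs of NR4A transcripts within each library, by group, with a line at the group mean. NR4A1 over NR4A2 lies at 3.12 and 4.23 in native libraries and at or below 1.05 in all cultured ones, whereas NR4A1 over NR4A3 overlaps.

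The comparisons between cultured groups ask about flow and about the stent. The share of all genes whose libraries separate in the same ways was not counted. Non-overlap, here and in the paragraphs below, is therefore given only as a description. For NR4A2 the cultured groups did not overlap: stented static libraries were lowest, then low-flow, then stented high-flow, and high-flow libraries were highest, although stented static and low-flow libraries lay close together. A test that the 4 cultured groups share 1 level, added after the values were seen, called NR4A2 (edgeR adjusted p = 0.0215) among 1.02% of all genes, but not NR4A1 (adjusted p = 0.0828) or NR4A3 (adjusted p = 0.618). The NR4A2 call depended on single libraries. It was lost without stented static replicate 1 (adjusted p = 0.0524), high-flow replicate 1 (0.0709), high-flow replicate 2 (0.0517), low-flow replicate 1 (0.0713) or low-flow replicate 2 (0.0733), and with a replicate block (0.0533).

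Both stented static libraries carry the mark 3d and no stented high-flow library does, so flow cannot be told apart from that mark. Among stented vessels, flow against no flow gave a log2 fold change of 1.03 ± 0.26 for NR4A2, with all 3 stented high-flow libraries above both stented static ones. This missed the threshold in edgeR (adjusted p = 0.0597, unadjusted p = 0.00216), where 2.85% of all genes were called (1.18% higher and 1.67% lower). It passed in DESeq2 at 1.02 (adjusted p = 0.00693), the only 1 of the 12 alternatives run that called it. DESeq2 called 1376 genes in this comparison, against 438 in the main edgeR fit. NR4A1 stood at 0.48 ± 0.41 and NR4A3 at 0.61 ± 0.44, and stented high-flow libraries overlapped stented static ones for both (edgeR adjusted p = 0.58 and 0.5). Several cell-type marker sums also separated these groups. Higher in stented high-flow than in stented static libraries were smooth muscle markers, at 3423 to 5454 and 452 to 2506 CPM, and adventitial fibroblast markers (6 of 6 matched), at 3664 to 6343 and 1442 to 3323 CPM. Not every gene in these 2 sums separated the groups. ACTA2, CNN1 and DCN did. MYH11 overlapped, at 280 to 934 CPM in stented high-flow and 65.5 and 685 CPM in stented static libraries, as did TAGLN, SMTN, LMOD1, DES and the other fibroblast genes. Lower were macrophage markers (8 of 8 matched), at 288 to 622 and 821 to 1859 CPM, endothelial ones, at 208 to 297 and 357 to 907 CPM, adipocyte ones (5 of 5 matched), at 24.9 to 64.2 and 119 to 1878 CPM, and Schwann cell ones, at 10.7 to 37.5 and 90.1 to 95.1 CPM. Within these lower sums, CD68, C1QA and AIF1 of macrophages, TEK of endothelium and LEP of adipocytes overlapped, and the other genes separated the groups. Red cell markers were below 1 CPM in both groups. The part of these cells in the NR4A values was not tested.

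Low flow against high flow, both without a stent, gave differences in the same direction for all 3 members. NR4A1 stood at -2.12 ± 0.46 and NR4A2 at -1.71 ± 0.28, and both low-flow libraries lay below both high-flow ones for each gene. Neither passed in edgeR (adjusted p = 0.254 and 0.0634, unadjusted p = 0.000812 and 7.84e-05), in a comparison where 0.104% of all genes did (0.0261% higher and 0.0782% lower). Both passed in DESeq2 (adjusted p = 0.0028 and 1.50e-05), without the filter on low counts (0.0265 and 0.0205) and when only the libraries of the table holding both groups were fitted (0.0413 and 0.0394). These were 3 of the 11 alternatives run, and neither gene was called in the rest. Among all genes the same 3 fits called 105, 54 and 46, against 16 in the main edgeR fit. NR4A3 stood at -0.78 ± 0.47 with overlapping libraries (adjusted p = 0.692), and at -0.12 without high-flow replicate 1. Marker sums that separated the same groups were higher in low-flow than in high-flow libraries for smooth muscle, at 6586 to 6934 and 1321 to 4660 CPM, for macrophages, at 724 to 850 and 258 to 479 CPM, and for Schwann cells, at 98.9 to 157 and 27.7 to 45.2 CPM. Not every gene in these sums separated the groups that way. TAGLN, SMTN and DES of smooth muscle and AIF1 of macrophages overlapped. The Schwann cell gene PRX was lower, at 6.94 and 6.29 CPM in low-flow and 7.28 and 8.47 CPM in high-flow libraries. The neutrophil and mast cell sum was lower, at 57.8 to 60.5 CPM in low-flow and 191 to 193 CPM in high-flow libraries. Nearly all of that sum was KIT, at 56.9 and 58.9 CPM in low-flow and 185 and 186 CPM in high-flow libraries, and the mast cell genes CPA3 and TPSB2 were not matched. Of the other matched genes of that list, S100A12 was also lower, at 0.428 and 0.664 CPM in low-flow and 7.02 and 4.31 CPM in high-flow libraries, and CSF3R overlapped, at 0.428 and 0.979 CPM in low-flow and 0.204 and 0.565 CPM in high-flow ones. The part of these cells in the NR4A values was not tested.

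With a stent against without one under the stronger flow, NR4A1 stood at -1.39 ± 0.40 and NR4A2 at -0.85 ± 0.25, and all 3 stented high-flow libraries lay below both high-flow ones for each. In edgeR 0% of the 15348 genes were called in this comparison, with 467 at an unadjusted p below 0.05, and DESeq2 called 6 genes, none of them a member. The unadjusted edgeR p-values of NR4A1 and NR4A2 were 0.00535 and 0.00541 and their adjusted ones 1. NR4A3 stood at -0.19 ± 0.43 and changed sign without high-flow replicate 1, to 0.47. Endothelial markers were also lower, at 208 to 297 CPM in stented high-flow and 361 to 513 CPM in high-flow libraries, and so was the neutrophil and mast cell sum, at 52.0 to 136 and 191 to 193 CPM, with KIT at 47.9 to 133 CPM in stented high-flow libraries. Of the endothelial genes, PECAM1, CDH5 and TIE1 separated the groups, and KDR and TEK overlapped. What part endothelial, neutrophil and mast cells had in the NR4A values was not tested. For NR4A1, stented high-flow libraries overlapped stented static and low-flow ones, and only high-flow libraries stood apart among the cultured ones.

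The likeness of the members across libraries depended on the native ones for NR4A3. Over the 11 libraries, Pearson's r of log2 CPM was 0.93 for NR4A1 with NR4A2, 0.94 for NR4A1 with NR4A3 and 0.89 for NR4A2 with NR4A3. Over the 9 cultured libraries alone the values were 0.84, 0.37 and 0.55. Spearman's rho was 0.84, 0.56 and 0.67 over the 11 libraries and 0.72, 0.22 and 0.40 over the 9. Library depth, culture group and tissue make-up are shared by these points, and the values are descriptions.

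Among 8401 genes with a symbol and a mean log2 CPM of at least 3, the 5 most like NR4A1 over the 11 libraries were the transcription factor FOXC1 (r = 0.983), the retinol dehydrogenase RDH10 (0.974), the TGF-beta pseudoreceptor BAMBI (0.974), the immediate early factor EGR1 (0.973) and CSRNP1 (0.972). For NR4A2 they were EGR1 (0.960), the AP-1 subunit FOSB (0.955), the splicing factor TRA2B (0.947), C1orf198 (0.947) and the chromatin protein HMGB2 (0.944). For NR4A3 they were the adhesion protein MCAM (0.980), the retinal reductase DHRS3 (0.973), the TGF-beta pathway inhibitor SMAD7 (0.966), IER5 (0.963) and the adhesion protein AMIGO2 (0.962). None of these genes recurred among the 5 most alike over the 9 cultured libraries. The genes most like NR4A2 there were EIF2B5 (0.953), BPNT1 (0.950), the MAP kinase phosphatase DUSP10 (0.948), FCF1 (0.942) and RGS2 (0.941), an inhibitor of G-protein signalling. Those most like NR4A1 were the kinase BRSK1 (0.958), the Hippo pathway factor TEAD4 (0.927), DIS3L2 (0.925), DNTTIP1 (0.922) and the cytokine CLCF1 (0.915). For NR4A3 they were CTH (0.891), CHSY3 (0.891), CTPS2 (0.885), SLC49A4 (0.884) and PSMD10 (0.883).

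RGS2 had its highest cultured group mean in high-flow vessels too. It measured 103 and 76.0 CPM in stented static vessels, 396, 172 and 183 CPM in stented high-flow, 359 and 586 CPM in high-flow and 85.3 and 63.2 CPM in low-flow, against 308 and 336 CPM in native arteries. Unlike NR4A2, its high-flow libraries were above both native ones. DUSP10 measured 7.07 and 7.24 CPM in stented static, 15.2, 9.93 and 13.0 CPM in stented high-flow, 15.5 and 16.7 CPM in high-flow and 8.82 and 7.55 CPM in low-flow libraries, against a mean of 10.2 ± 1.37 CPM in native ones. The levels of both genes in high-flow and stented high-flow libraries lay above those in low-flow and stented static ones, with no overlap. Both were chosen for their likeness to NR4A2 over these cultured libraries, so a shared group order follows in part from the choice.

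Genes that surround the receptors were followed in lists, read here against the median of all genes tested, 0.02 in cultured against native, and against the 9.79% of all genes called higher and 15.9% called lower. Of 31 other immediate early and early response genes tested (35 listed), 26 were lower and 0 higher in cultured vessels, with a median log2 fold change of -1.99. FOSB changed by -7.68 ± 0.54, FOS by -6.15 ± 0.47 and EGR1 by -5.95 ± 0.34, and the mRNA-decay factor ZFP36 by -3.80 ± 0.39 (edgeR adjusted p = 7.02e-06, 1.15e-05, 3.01e-06 and 6.71e-05). EGR1 averaged 58.7 ± 9.58 CPM in stented static, 150 ± 95.1 in stented high-flow, 330 ± 80.9 in high-flow and 98.0 ± 38.5 in low-flow vessels, and 8035 ± 599 CPM in native. The prostaglandin synthase PTGS2 was not called in cultured against native (0.13 ± 0.47, edgeR adjusted p = 0.867). It averaged 134 ± 46.4 CPM in stented high-flow vessels, against 8.53 ± 0.325 CPM in stented static ones (log2 fold change 3.98 ± 0.65, edgeR adjusted p = 0.0134, or 0.0979 without stented static replicate 1).

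Of 18 cAMP- and CREB-responsive genes other than the members, 11 were lower and 2 higher in culture (median -1.08). The list shares 3 genes, FOS, ATF3 and DUSP1, with the one above. Without native replicate 1 the counts were 7 and 1, and without native replicate 2 they were 8 and 0. The stress factor ATF3 changed by -3.63 ± 0.30, the CREB-induced kinase SIK1 by -3.32 ± 0.26 and the phosphodiesterase PDE3B by -2.19 ± 0.33 (edgeR adjusted p = 1.79e-05, 1.28e-05 and 0.000747). SIK1 averaged 133 ± 73.4 CPM in stented static, 46.3 ± 12.7 in stented high-flow, 75.2 ± 16.4 in high-flow and 27.5 and 28.5 CPM in the low-flow vessels, and 602 ± 87.0 CPM in native ones.

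Of 30 regulators of NR4A transcription, 9 were lower and 0 higher (median -0.25). The list mixes activators with inhibitors such as HDAC9, so its lower genes are not all activators. The cAMP-dependent kinase subunit PRKAR2B changed by -2.28 ± 0.25, protein kinase C delta PRKCD by -1.75 ± 0.18, the deacetylase HDAC9 by -2.01 ± 0.55 and the muscle factor MEF2C by -1.60 ± 0.35 (edgeR adjusted p = 9.80e-05, 7.71e-05, 0.0208 and 0.00644). HDAC9 lost its call without native replicate 1 (0.0939) or native replicate 2 (0.159), and MEF2C without native replicate 2 (0.103). The count of lower genes was 5 without native replicate 1, 4 without native replicate 2 and 6 without stented high-flow replicate 2. Serum response factor SRF averaged 50.8 ± 7.86 CPM in stented static, 67.5 ± 3.82 in stented high-flow, 58.8 ± 2.35 in high-flow and 74.1 ± 5.32 in low-flow vessels, and 170 ± 5.41 CPM in native ones (log2 fold change -1.45 ± 0.17 in cultured against native, edgeR adjusted p = 0.000136). CREB1, which encodes the cAMP-response factor CREB, stood at -0.32 ± 0.35 (adjusted p = 0.542). SRF and CREB1 were picked after their values were seen.

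Of 18 receptors that raise cAMP or calcium in vessels, 4 were lower and 2 higher (median -0.55). Without native replicate 2 the counts were 3 and 0. The adenosine receptor ADORA2A changed by -3.08 ± 0.34 and the prostaglandin receptor PTGER4 by -2.16 ± 0.30 (edgeR adjusted p = 0.000111 and 0.000486), both of which signal through cAMP. ADORA2A measured 4.64 to 8.60 CPM as the mean of each cultured group and 53.9 ± 5.71 CPM in native vessels. The growth factor receptor PDGFRA changed by 2.81 ± 0.61 and the endothelin receptor EDNRA by 2.25 ± 0.65 (adjusted p = 0.00649 and 0.0257). Both of these calls were lost without native replicate 2 (adjusted p = 0.0935 and 0.151), and EDNRA's also without native replicate 1 (0.168).

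Of 18 partners and cofactors of the receptors, which include the retinoid X receptors also counted among the nuclear receptors, 3 were lower and 2 higher (median -0.12), and with either native library left out the counts were 2 and 0. The coactivator NCOA1 changed by -1.12 ± 0.20 (edgeR adjusted p = 0.00202), and the retinoid X receptor RXRA averaged 180 ± 26.8 CPM in stented static, 74.4 ± 8.12 in stented high-flow, 89.7 ± 8.51 in high-flow and 113 ± 28.5 in low-flow vessels, and 169 ± 16.5 CPM in native ones. The checkpoint kinase CHEK2 changed by 1.08 ± 0.27 and the corepressor RCOR1 by 0.84 ± 0.23 (edgeR adjusted p = 0.0143 and 0.0218), and both calls were lost without native replicate 1 (0.0954 and 0.0608) or native replicate 2 (0.132 and 0.24). RXRA's change in cultured against native, -0.65 ± 0.20 (adjusted p = 0.0359), lost its call in 9 of 16 alternatives, among them the fits without native replicate 1 (0.282) and native replicate 2 (0.166).

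Genes reported elsewhere as NR4A targets moved both ways. Of 32 tested (41 listed), 12 were lower and 6 higher (median -0.49), and with either native library left out 8 were lower and 5 higher. The matricellular protein SPP1 changed by 4.15 ± 0.56 and the gluconeogenic enzyme FBP1 by -4.08 ± 0.46 (edgeR adjusted p = 0.000417 and 0.000127). ARG1, the arginine-consuming enzyme, averaged 4.59 ± 5.20 CPM in stented static, 19.4 ± 8.19 in stented high-flow, 17.1 ± 2.21 in high-flow and 21.3 ± 11.2 in low-flow vessels, and measured 0.0651 and 0 CPM in native ones, under the level of 3 counts. The chemokine CXCL8 stood at 3.47 ± 0.85 (edgeR adjusted p = 0.0122). Leaving out native replicate 1 ended this call, at 2.74 (0.13).

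Of 36 other nuclear receptors tested (45 listed), 13 were lower and 3 higher (median -0.52), and without native replicate 1 or native replicate 2 the counts were 6 and 1. PPARG, the adipocyte regulator, changed by -3.03 ± 0.51, the mineralocorticoid receptor NR3C2 by -2.63 ± 0.42 and the thyroid hormone receptor THRB by -1.51 ± 0.36 (edgeR adjusted p = 0.00163, 0.00115 and 0.0102). THRB lost its call without native replicate 1 (0.103) or native replicate 2 (0.0613). PPARG measured 42.9 CPM in stented static replicate 1, the library with high adipocyte markers, and 3.83 CPM in replicate 2, against 42.4 and 29.7 CPM in native vessels. The oestrogen receptor ESR1 and the related ESRRG, picked after their values were seen and below the abundance set for naming, were also called lower, with group means of at most 0.102 CPM in cultured vessels and 1.75 and 0.88 CPM in native ones. The vitamin D receptor VDR ran the opposite way to the NR4A genes. It averaged 18.9 ± 4.99 CPM in stented static, 89.9 ± 13.2 CPM in high-flow and 57.3 ± 6.17 CPM in low-flow vessels, spanned 74.8 to 141 CPM in stented high-flow ones, and averaged 0.847 ± 0.185 CPM in native vessels (log2 fold change 6.05 ± 0.41, edgeR adjusted p = 6.93e-06).

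**Figure D4:**
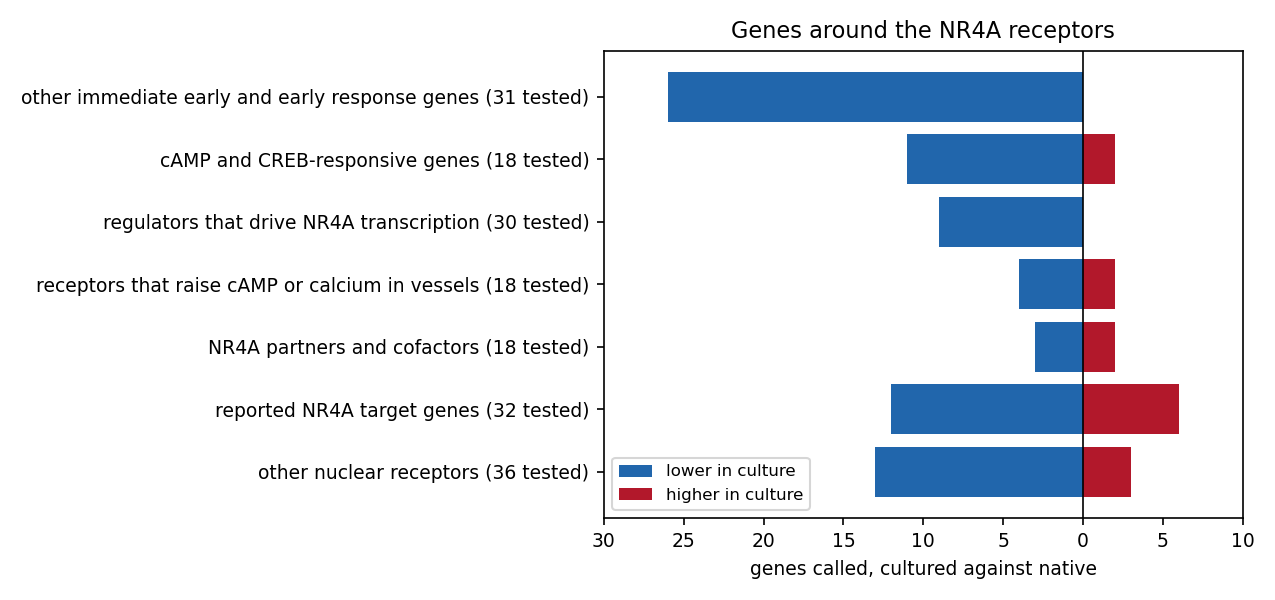
Number of genes called lower (left of 0) and higher (right of 0) in cultured against native vessels in 7 lists of genes related to the NR4A receptors, with the number tested beside each list name. Other immediate early and early response genes had 26 lower and 0 higher of 31, and partners and cofactors 3 lower and 2 higher of 18.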

How the data were processed

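The authors deposited raw counts per gene and library in 2 tables, which were joined by identifier; their native columns are identical. Per the submitters' processing notes, reads were trimmed with Trimmomatic and checked with FastQC, the genome was Sscrofa11.1 and groups were compared with DESeq2. No source used here names the aligner, counter, strand setting or annotation version. The authors' deposited log2 fold changes against native were used only where named. Symbols came from a table of Ensembl identifiers, and positions from RefSeq in the same build.

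Differences were tested with edgeR 4.0.16 in R 4.3.3. Genes passed filterByExpr (15348), libraries were scaled by TMM, a single model held all 5 groups, and quasi-likelihood p-values were adjusted by the Benjamini-Hochberg method over every gene tested (threshold 0.05). The SE is the log2 fold change divided by the square root of F. A prior count of 2 was added for log2 CPM. The model was tested on simulated data. DESeq2 1.42.0 was an alternative. Further alternatives were RLE size factors, dropping the filter, requiring 10 counts in each library, blocking on replicate number, fitting the compared groups alone or a single count table alone, and leaving out each library.

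The members and lists were chosen with earlier results of these data known. The NR4A genes were named in every comparison; from each list the rule took up to 4 called genes per comparison with the largest change (mean log2 CPM 1 or more), and for each member the 5 genes with the highest r. Not all genes the rule allows are printed for the single comparisons. SRF, CREB1, ESR1, ESRRG and the per-library values of RGS2, DUSP10 and FOSB were picked after their values were seen. The test across cultured groups and the ratio tests were also added then. No sequence was used here.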

Additional observations from a re-analysis of the deposited data

How the results depend on the processing

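Of 153 member results with a library left out, 147 stayed on their side of the threshold, and of 171 under other settings 162 did; none reversed a call. NR4A2 in high-flow against native ranged from -1.79 to -1.25 with a library left out. In low-flow against high-flow the DESeq2, unfiltered and single-table log2 fold changes were -2.11, -2.12 and -2.13 for NR4A1 and -1.71, -1.71 and -1.72 for NR4A2, all called. The rest of the 11 alternatives there called neither gene. In stented high-flow against stented static, only DESeq2 (1.02) of the 12 alternatives called NR4A2. Across the 4 cultured groups NR4A1 was called without a filter (adjusted p = 0.00475), and NR4A2 was lost with the replicate block (0.0533) and ran from 0.0177 to 0.0733 with a library left out. All 9 levels and ratios under other prior counts or raw totals kept their side.

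Counts of genes called over the whole table moved more. DESeq2 called 3089 genes in stented static, 2903 in low-flow against native, 1376 in stented high-flow against stented static, 105 in low-flow against high-flow and 6 in stented high-flow against high-flow, instead of 1955, 1904, 438, 16 and 0. Without a filter stented high-flow against stented static had 1003, low-flow against high-flow 54 and the 4 cultured groups 753 instead of 156; with at least 10 counts in every library the last 2 had 2 and 100. Only the groups compared gave 4884 in low-flow against native and 32 in stented high-flow against stented static. A single count table gave 1232 in stented static, 3854 in high-flow and 3363 in low-flow against native, 160 in stented high-flow against stented static and 46 in low-flow against high-flow. Leaving out a library gave 514 to 1671 in stented static, 1542 to 4072 in stented high-flow, 752 to 1318 in high-flow, 361 to 556 in low-flow and 1693 to 4492 in cultured against native, 95 to 784 in stented high-flow against stented static, 5 to 13 in low-flow against high-flow, 0 to 1 in stented high-flow against high-flow and 50 to 440 across the cultured groups. The cause was not tested. No single table holds both groups of stented high-flow against high-flow, or all groups of cultured against native.

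With the replicate block, counts were 2489 in stented high-flow against native, 185 in stented high-flow against stented static and 81 across the cultured groups. Replicate numbers are not treated as pairs, since the labels do not state that they pair libraries. Same-numbered libraries deviated from their group means with correlations of -0.33 to 0.18. Between groups of 2 libraries the values for replicates 1 and 2 are equal by construction, so they are not separate checks. Neither these correlations nor the block compare the 2 libraries that share the number 25. Where a group was left with 1 library, the fit assumes that it varies like the others. The comparisons between cultured groups rest on 2 or 3 libraries each, with 79 or more counts of each member per library.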

Other observations

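High-flow replicate 1 and replicate 2 were unlike each other for several early genes. FOSB measured 52.8 CPM in replicate 1 and 9.14 CPM in replicate 2, against 1374 and 753 CPM in the native libraries. NR4A3 measured 10.3 and 4.77 CPM in the same high-flow libraries, while NR4A1 was the higher in replicate 2, at 68.9 and 95.6 CPM.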
